A study of Mus musculus with 15 samples.

Results

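The expression of 10 apolipoprotein genes was examined in the livers of Stab1-/- and wildtype mice. The members were Apoa1, Apoa2, Apoa4, Apoa5, Apob, Apoc2, Apoc3, Apoe, Apom and Apoh, chosen by symbol from the 19464 rows of the deposited table, and each symbol was found. Stab1 encodes Clever-1, a scavenger receptor of endothelial cells and macrophages. RNA-seq libraries of total liver RNA were available from 4 Stab1-/- and 4 wildtype mice at 2 weeks of age, and from 3 Stab1-/- and 4 wildtype samples of the embryonic stage E17.5. No treatment was given in the labels, and all 4 groups carry the same background, written as C57BL/6N;129SvJ. The knockout is constitutive and affects Clever-1 in all cells. The methods count the mice as many as there are libraries in each group, and whether the wildtype mice were littermates is not stated in the sources used here.

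Apolipoproteins are the protein part of the particles that carry lipid in plasma, and hepatocytes are their main source together with the intestinal epithelium. Apob is the scaffold of very-low-density lipoprotein, Apoa1 and Apoa2 are the main proteins of high-density lipoprotein, and Apoe is the ligand by which remnant particles are taken up through receptors of the LDL receptor family. A further set controls how triglyceride is released from the particles: Apoc2 is the cofactor that lipoprotein lipase requires, Apoc3 inhibits the lipase and slows clearance, and Apoa5 promotes clearance of triglyceride. Apoa4 is made by both intestine and liver and rides on chylomicrons and high-density lipoprotein, Apom carries sphingosine-1-phosphate on high-density lipoprotein, and Apoh, also called beta-2-glycoprotein I, binds phospholipids and takes its name from its presence in lipoprotein fractions. The fetal liver is also a site of blood formation, which bears on every comparison of the ages in bulk tissue.

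Of the 10 genes, 4 lie next to each other on chromosome 9. In the GENCODE annotation of GRCm38, Apoa1 (46228580 to 46230466), Apoc3 (46232933 to 46235636), Apoa4 (46240696 to 46243459) and Apoa5 (46268633 to 46271919) fill 43.3 kb, with Apoc3 on the minus strand and the other members on the plus strand. Apoe (19696109 to 19699188) and Apoc2 (19671579 to 19677941) share a cluster on the minus strand of chromosome 7. Apoa2 is on chromosome 1, Apoh on chromosome 11, Apob on chromosome 12 and Apom on chromosome 17. The build the authors used is not named, so these positions serve to locate the genes. Apoa4 and Apoa5 each have an antisense gene on the other strand (Gm10680 and Gm47544), Apoc2 overlaps the readthrough gene Gm44805 and Apoh overlaps Prkca. Whether reads were counted by strand is not stated, and reads of such overlapping genes then cannot be told apart.

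The start-site sequences of 3 genes of the chromosome 9 cluster are shown because they differ widely in fetal expression despite their closeness, and that of Apoc2 is shown for contrast, as a lipase regulator whose fetal level was far above that of Apoc3. Each runs from 250 bases before to 50 bases after a RefSeq transcription start in GRCm38.p6, 5′ to 3′ on the strand of the gene, and covers chr9:46268358-46268657, chr9:46240594-46240893 and chr9:46228380-46228679 on the plus strand and chr7:19677892-19678191 on the minus strand. Capitals mark matches on either strand to any of 4 motifs. The core of the TATA box was searched as TATAAA. A half-site of nuclear receptors was searched as AGGTCA, and a form of the HNF4 motif as CAAAGTCCA. A half-site of HNF1 was searched as GTTAAT.
Apoa5: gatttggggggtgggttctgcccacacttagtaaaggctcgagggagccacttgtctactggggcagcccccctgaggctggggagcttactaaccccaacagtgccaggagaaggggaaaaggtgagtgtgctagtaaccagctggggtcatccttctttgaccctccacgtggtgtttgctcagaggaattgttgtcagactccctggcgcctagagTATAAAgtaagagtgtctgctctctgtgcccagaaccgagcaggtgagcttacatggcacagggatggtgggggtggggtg
Apoa4: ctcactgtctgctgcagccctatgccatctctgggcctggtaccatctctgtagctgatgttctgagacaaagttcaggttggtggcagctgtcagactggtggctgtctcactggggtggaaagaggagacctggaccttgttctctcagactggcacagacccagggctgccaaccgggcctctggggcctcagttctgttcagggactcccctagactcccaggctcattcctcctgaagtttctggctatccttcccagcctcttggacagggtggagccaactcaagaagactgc
Apoa1: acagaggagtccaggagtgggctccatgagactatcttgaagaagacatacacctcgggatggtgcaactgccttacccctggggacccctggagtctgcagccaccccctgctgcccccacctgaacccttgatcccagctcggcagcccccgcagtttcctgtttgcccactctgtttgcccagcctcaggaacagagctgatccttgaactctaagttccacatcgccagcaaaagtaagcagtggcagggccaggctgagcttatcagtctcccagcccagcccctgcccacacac
Apoc2: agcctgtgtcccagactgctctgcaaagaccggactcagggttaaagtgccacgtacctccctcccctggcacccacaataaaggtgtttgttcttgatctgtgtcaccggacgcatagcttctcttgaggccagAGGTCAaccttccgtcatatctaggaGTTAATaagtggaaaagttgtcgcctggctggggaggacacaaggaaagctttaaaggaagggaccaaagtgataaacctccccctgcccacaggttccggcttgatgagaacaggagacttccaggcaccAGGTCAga
Of the 4 sequences, that of Apoa5 held TATAAA, at 31 to 26 bases before the start, and that of Apoc2 held AGGTCA at 2 places and GTTAAT at 1, while those of Apoa4 and Apoa1 held none of these letters. Among the 9 members with a window in the table, TATAAA occurred in 2, AGGTCA in 3, GTTAAT in 1 and CAAAGTCCA in 0. Of all 32851 windows, 13.62% held TATAAA, 16.26% AGGTCA, 7.1% GTTAAT and 0.47% CAAAGTCCA. No window was listed for Apoc3. The windows follow RefSeq starts, which can differ from the GENCODE gene starts. Those of Apoa4 and Apom lie mostly inside the GENCODE genes. Those of Apoa2 (171221314 to 171221613) and Apoh (108395047 to 108395346) lie away from the GENCODE starts at 171225054 and 108343354. These matches are descriptions of the letters and no sites of binding.

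The targeted gene was examined first. Stab1 had 68 to 119 reads per library in 2-week-old Stab1-/- mice against 579 to 941 in wildtype mice, and 301 to 443 against 1244 to 1868 at E17.5, with no overlap between the genotypes at either age. Each library held between 9.66 M and 10.96 M reads on genes. All 8 hepatocyte markers examined, Alb and Ttr among them, were detected in every library, with a summed level of 56403 to 96119 RPKM (reads per kilobase of gene, scaled to the reads counted on genes). The 7 erythroid markers in the table summed to 5403 to 7142 RPKM at E17.5 and to 149 to 265 RPKM at 2 weeks. Among the E17.5 libraries some held RNA of genes of other organs: the pancreas markers summed to 2537 RPKM in wildtype replicate 2, with 7.79 to 248 RPKM in the other libraries, and the intestinal markers to 322 RPKM in Stab1-/- replicate 1, with 24.3 to 43.2 RPKM in the other libraries of that age. The intestinal genes are given again beside Apoa4.

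The 10 genes took 4.66% ± 0.25 (SD, n = 4) of all reads in wildtype livers at 2 weeks and 1.68% ± 0.08 (SD, n = 4) at E17.5, and the shares of the Stab1-/- livers were 4.65% ± 0.43 (SD, n = 4) and 1.72% ± 0.09 (SD, n = 3). Apoa1, Apoa2, Apoe and Apob were among the 10 genes with most reads in at least 1 library. Since genes of this abundance alter the total they are divided by, the tests used TMM scaling (trimmed mean of M-values), which sets aside the most extreme genes. The TMM factors were 0.867 to 0.972 at 2 weeks and 1.04 to 1.16 at E17.5. The RPKM values in the text are those deposited, which use library totals, and the fold changes and p-values come from edgeR's quasi-likelihood test with TMM scaling and Benjamini-Hochberg adjustment over all genes tested. A gene is called when its adjusted p is under 0.05. All 10 members passed the filter on low counts in every comparison.

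The levels were compared per length (plot of RPKM by gene and library). At 2 weeks all members in wildtype livers were among the 1492 rows with the highest RPKM, while at E17.5 their ranks ran from 8 to 11072. At 2 weeks in wildtype livers, Apoa1 (14331 ± 1234 RPKM) and Apoe (13852 ± 1185) stood at ranks 4 and 5 among all rows and their libraries overlapped, followed by Apoa2 (9726 ± 823) below the libraries of Apoe (SD, n = 4 each). Apoh (1874 ± 159) and Apoc3 (1527 ± 194) came next and overlapped with each other, and then Apom, Apoa5, Apob and Apoc2, each overlapping with its neighbour in that order, between 499 and 320 RPKM. Apoa4, at 39.9 ± 5.89 RPKM, was the lowest and lay 8.01-fold below Apoc2. At E17.5 the order in wildtype livers was Apoa1, Apoa2, Apoe, Apoh, Apom, Apoc2, Apob, Apoc3, Apoa5 and Apoa4, and only the last pair in that order overlapped. The E17.5 levels thus ran from 5175 ± 617 RPKM for Apoa1 to 1.75 ± 1.21 RPKM for Apoa4 (SD, n = 4 each). In Stab1-/- livers the order was the same at 2 weeks except that the mean of Apob stood above that of Apoa5, where their libraries overlapped, and at E17.5 except that the mean of Apoa4 stood above those of Apoc3 and Apoa5 through 1 library.

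**Figure D1:**
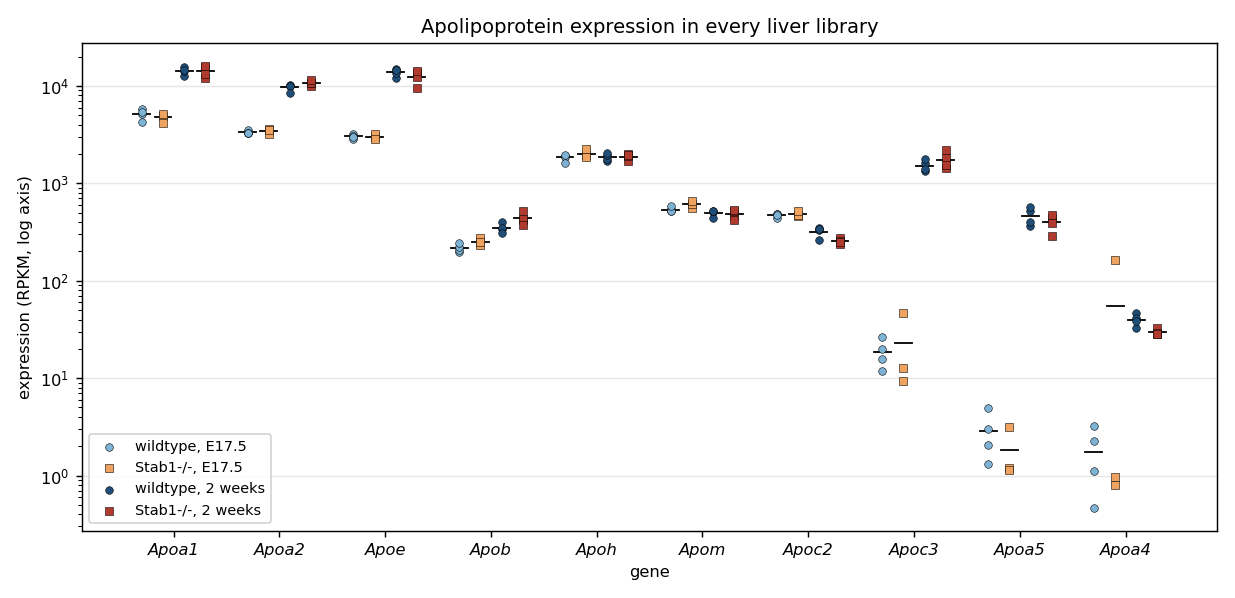
RPKM of each apolipoprotein gene (log axis) in every library, with circles for wildtype, squares for Stab1-/-, light colours for E17.5 and dark colours for 2 weeks, and a black bar at each group mean. Apoc3, Apoa5 and Apoa4 are far lower at E17.5 than at 2 weeks, except for Apoa4 in 1 Stab1-/- library at 163 RPKM, while the levels of Apoh and Apom differ little between the ages.

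The first comparison was between the ages in wildtype livers. Apoa5 and Apoa4 were at 2.84 and 1.75 RPKM and Apoc3 at 18.5 RPKM at E17.5, and they rose by 210-fold, 29.0-fold and 105-fold to 2 weeks, Apoe rose by 5.88-fold, Apoa2 by 3.74-fold and Apoa1 by 3.56-fold, and Apob doubled with a fold of 2.07. Apoh and Apom differed little, with folds of 1.30 and 1.19, and Apoc2 was at 0.87 of its fetal level without passing the test. In all, 9 of the 10 members were higher at 2 weeks and 0 lower by the test, beside a background of 71.9% of the 13369 genes tested that were called, 34.9% higher and 37% lower. On the TMM scale 8 members had no overlap between the ages, all higher at 2 weeks, where 66.7% of all genes had none (31.9% higher and 34.7% lower). The median log2 fold change was 1.87 over the members and -0.01 over all genes.

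The 3 genes of triglyceride handling and fat absorption on chromosome 9 had the largest differences. Apoa5 had 8946, 11897, 14116 and 9949 reads in the wildtype livers at 2 weeks and 123, 73, 53 and 33 reads at E17.5. Apoc3 had 8792, 9176, 7512 and 7774 reads at 2 weeks and 149, 110, 90 and 67 at E17.5. Apoa4 had 818, 543, 736 and 680 reads at 2 weeks and 20, 8, 41 and 57 at E17.5. In each of these genes the lowest 2-week library was far above the highest fetal library, and all fetal libraries were above the 3 reads taken as the smallest level a library can show, a floor that covers counting error only. The intestinal markers did not move one way in wildtype livers. Fabp2 rose from 42 to 55 reads at E17.5 to 497 to 1470 reads at 2 weeks. Krt20 fell from 331 to 457 reads to 32 to 117, and Vil1 from 23 to 37 reads to 3 to 8. Lgals4 overlapped, with 95 to 123 reads at E17.5 and 94 to 166 at 2 weeks. Cdh17, Guca2a and Muc2 had at most 10 reads in any wildtype library, and Cdx1, Cdx2 and Sis at most 1. The part of intestinal RNA in the level of Apoa4 was not tested. The log2 fold changes were 7.71 (SE 0.37) for Apoa5, 6.72 (SE 0.24) for Apoc3 and 4.86 (SE 0.33) for Apoa4, with adjusted p-values of 2.76e-09, 2.56e-10 and 6.30e-08 (edgeR). Apoa1, the gene beside Apoc3, was already at 5764, 5185, 5429 and 4320 RPKM at E17.5 and at 12714, 14216, 15667 and 14725 RPKM at 2 weeks. The RPKM of Apoc3 was therefore 0.00353 ± 0.00086 of that of Apoa1 at E17.5 and 0.108 ± 0.020 at 2 weeks (SD, n = 4 each), a ratio within each library that no scaling alters. Reads covered 99.2% to 99.8% of the Apoc3 gene model at 2 weeks and 93.9% to 96.2% at E17.5, so that the fetal reads of Apoc3 were spread along the gene. Fetal coverage in wildtype livers was lower for Apoa4 (19.9% to 68.7%) and Apoa5 (41.3% to 77.4%).

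The 2 regulators of lipoprotein lipase of the C class parted between the ages. Apoc2, the cofactor, had 345, 334, 338 and 262 RPKM in wildtype livers at 2 weeks and 481, 445, 490 and 478 RPKM at E17.5, and every fetal library was the higher on this scale of library totals. On the TMM scale the log2 fold change was -0.21 (SE 0.10, adjusted p = 0.0862), and the groups overlapped. Scaled by library totals it was -0.57 with an adjusted p of 0.000392 (edgeR), so that the call of Apoc2 depends on the scaling. The ratio of Apoc3 to Apoc2, which is free of it, was 0.0549, 0.0452, 0.0320 and 0.0250 in the fetal libraries and 4.65, 5.28, 3.996 and 5.31 at 2 weeks. The inhibitor went from far below the cofactor to several times above it.

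Of the particle proteins, Apoe had 12236, 13707, 14849 and 14617 RPKM in wildtype livers at 2 weeks and 3252, 2837, 3068 and 2982 at E17.5, with a log2 fold change of 2.55 (SE 0.13, adjusted p = 5.19e-09). Apoe is made by macrophages as well as by hepatocytes, and the 7 macrophage markers in the table did not move one way between the ages in wildtype livers. Clec4f and Vsig4, markers of Kupffer cells, were higher at 2 weeks (65.2 to 99.3 and 26.4 to 46.0 RPKM) than at E17.5 (27.2 to 43.1 and 5.7 to 8.6 RPKM). Lyz2 was lower (37.2 to 68.2 against 314 to 454 RPKM), as were Csf1r and Marco, and Cd68 and C1qa overlapped. The sum of the list, 252 to 356 RPKM at 2 weeks and 511 to 687 RPKM at E17.5, follows Lyz2, and the part of macrophages in the level of Apoe was not tested. Apoa2 and Apoa1 rose together, by 1.90 (SE 0.11) and 1.83 (SE 0.14) on the log2 scale, and the RPKM of Apoa2 was 0.684 ± 0.0998 of that of Apoa1 at 2 weeks and 0.651 ± 0.069 at E17.5 (SD, n = 4 each). Apob rose by 1.05 (SE 0.11), with 404, 343, 349 and 312 RPKM at 2 weeks and 197, 208, 224 and 243 at E17.5, so that both groups were apart. Apoa1 rose more than Apob, and their ratio went from 24.1 ± 4.73 to 41.3 ± 6.95 (SD, n = 4 each).

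The calls of Apoh and Apom depended on the scaling. Apoh had 1695, 1789, 1980 and 2033 RPKM at 2 weeks and 1932, 1874, 1978 and 1616 RPKM at E17.5 in wildtype livers, and these ranges overlap. With TMM scaling its log2 fold change was 0.38 (adjusted p = 0.0141), and with library totals 0.02 (adjusted p = 0.877). Apom had 514, 446, 519 and 518 RPKM at 2 weeks and 540, 518, 515 and 585 RPKM at E17.5, and its log2 fold change was 0.25 (adjusted p = 0.0394) with TMM scaling and -0.11 (adjusted p = 0.294) with library totals. Library totals moved the median over all genes to -0.38 and the share of higher genes among those called from 48.5% to 31.3%.

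Expression was also set against 8 hepatocyte markers, since fewer hepatocytes and less RNA per hepatocyte cannot be told apart in bulk liver. The erythroid markers also differed greatly between the ages. The 8 hepatocyte markers did not move together between the ages in wildtype livers. Tat rose from 1.65 to 2.94 RPKM at E17.5 to 97.1 to 277 RPKM at 2 weeks. Asgr1, Cps1, Ttr, Hnf4a and Alb were also higher in every 2-week library. Trf overlapped, with 14008 to 16818 RPKM at E17.5 and 13548 to 16706 RPKM at 2 weeks, as did Fgb. Each library was scaled by the median of the hepatocyte markers, an alternative chosen after seeing the data. It moved the median of all genes to -1.44. With it 6 members were higher at 2 weeks and 4 lower, beside 926 higher and 11143 lower of the 13369 genes tested. Apoa5, Apoc3 and Apoa4 kept log2 fold changes of 6.29, 5.30 and 3.45, Apoe, Apoa2 and Apoa1 had 1.12, 0.48 and 0.40, and Apob, Apoh, Apom and Apoc2 had -0.37, -1.05, -1.18 and -1.62. Whether the median of the hepatocyte markers follows the number of hepatocytes was not tested, so these values are not levels per hepatocyte. The part of cell composition in the stage differences was not tested further.

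**Figure D2:**
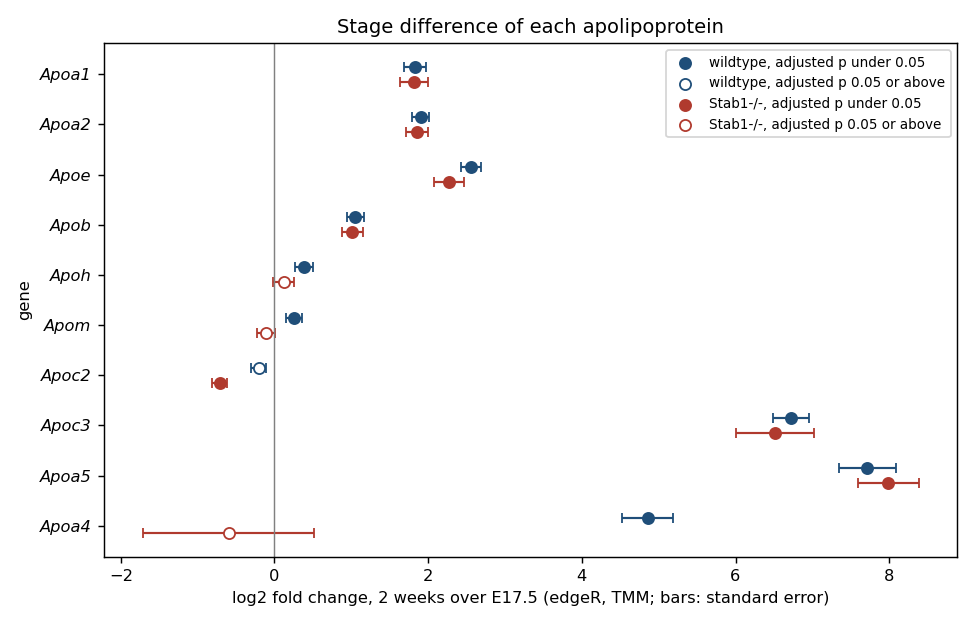
Log2 fold change of each apolipoprotein gene between the ages (2 weeks over E17.5, TMM scaling) in wildtype (blue) and Stab1-/- (red) livers, with bars of 1 standard error, filled where the adjusted p was under 0.05. The values of both genotypes lie together for most genes, from 7.71 and 7.99 for Apoa5 to -0.21 and -0.71 for Apoc2, and Apoa4 stands apart, at 4.86 in wildtype and -0.60 with a standard error of 1.11 in Stab1-/- livers.

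The same comparison was made in Stab1-/- livers. There 6 members were higher at 2 weeks, 1 was lower and 3 did not pass the test, beside a background of 72.5% of 13433 genes called, 35.7% higher and 36.8% lower. The same 7 members had no overlap, where 71.8% of all genes had none (35.3% higher and 36.5% lower). The higher genes were Apoa5 (log2 fold change 7.99, SE 0.39), Apoc3 (6.51, SE 0.50), Apoe (2.27, SE 0.20), Apoa2 (1.85, SE 0.15), Apoa1 (1.81, SE 0.18) and Apob (1.01, SE 0.14). Apoc2 was the lower gene, with 277, 258, 237 and 248 RPKM at 2 weeks and 464, 471 and 527 RPKM at E17.5 and a log2 fold change of -0.71 (SE 0.10, adjusted p = 6.07e-05). Apoh (0.12) and Apom (-0.11) did not pass, and under library totals Apoh turned to -0.10 and Apom to -0.33, the latter with an adjusted p of 0.0199. Library totals moved the median of all genes to -0.24 and the share of higher genes among those called from 49.2% to 38.8%. Apoa4 had 467, 572, 467 and 466 reads at 2 weeks and 2851, 14 and 17 reads at E17.5, so that 1 fetal library lay above and the other two far below the 2-week libraries, and the log2 fold change of -0.60 (adjusted p = 0.645) rests on that library, in which intestinal markers such as Cdx2 (253 reads) were also high. Without it the value was 5.24 (SE 0.18, adjusted p = 3.21e-10), and 7 members were higher.

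The genotypes were compared next, first at 2 weeks. Livers of Stab1-/- mice had less Apoa4 than wildtype livers, with a fold of 0.698, and 1.33-fold less Apoc2, the latter just short of the threshold. Apoa1, Apoa2, Apob, Apoe, Apom, Apoh, Apoc3 and Apoa5 overlapped between the genotypes, with log2 fold changes between -0.31 and 0.23 and adjusted p-values of 0.292 to 0.787. By the test 0 members were higher and 1 was lower, and 2 members did not overlap between the groups, both lower, beside a background of 2.67% of 12716 genes called (0.936% higher and 1.74% lower) and 13.9% without overlap (6.93% higher and 6.94% lower). The median log2 fold change was -0.11 over the members and -0.01 over all genes.

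Apoa4 had 28.4, 32.5, 29.0 and 28.7 RPKM in the 2-week-old Stab1-/- livers and 46.9, 32.9, 41.6 and 38.3 RPKM in the wildtype livers. All Stab1-/- libraries were below all wildtype libraries, the closest pair being 32.5 and 32.9 RPKM. The log2 fold change was -0.52 (SE 0.12, adjusted p = 0.0432). This call was a near one: over 19 alternatives the log2 fold change stayed between -0.61 and -0.41 while the adjusted p ranged from 0.00585 to 0.762, and it was under 0.05 in 6 of them. The value of 0.762 came from the fit of all 15 libraries (log2 fold change -0.50, SE 0.87), which also takes in an E17.5 library with 2851 Apoa4 reads. The call was lost with library totals (0.0785), with offsets for the GC content of the transcripts (0.0705) and without any 1 library other than wildtype replicate 2. Of the 10 intestinal markers, Cdx1, Cdx2 and Sis had 0 reads in all 2-week libraries and Cdh17, Guca2a and Muc2 at most 3, while Fabp2 had 497 to 1470, and the summed level of the list was 91.8 to 139 RPKM in Stab1-/- and 58.6 to 157 RPKM in wildtype livers. The 8 hepatocyte markers summed to 56403 to 71079 RPKM in Stab1-/- and to 75330 to 96119 RPKM in wildtype livers at 2 weeks. This gap came from Alb, Trf and Ttr, which were lower in every Stab1-/- liver, whereas Hnf4a, Fgb, Tat, Cps1 and Asgr1 overlapped between the genotypes. The part of these markers in the values of Apoa4 and Apoc2 was not tested.

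Apoc2 had 277, 258, 237 and 248 RPKM in Stab1-/- livers and 345, 334, 338 and 262 RPKM in wildtype livers at 2 weeks. On the RPKM scale the lowest wildtype library fell among the Stab1-/- libraries, while on the TMM scale, with 165 ± 9.47 against 220 ± 22.7 CPM (counts scaled per library, SD, n = 4 each), the groups were apart. The log2 fold change was -0.42 (SE 0.10) with an adjusted p of 0.0513, and DESeq2 gave 0.00866. Ratios within a library avoid the choice of scaling, and of 10 ratios between members that were computed, 3 did not overlap between the genotypes at 2 weeks and 0 at E17.5. The ratio of Apoa4 to Apob was 0.0688 ± 0.0110 in Stab1-/- and 0.114 ± 0.012 in wildtype livers, that of Apoc3 to Apoc2 was 6.92 ± 1.45 and 4.81 ± 0.62, and that of Apoe to Apoa1 was 0.869 ± 0.066 and 0.967 ± 0.019 (SD, n = 4 each). The ratio of Apoa4 to Apoa1 overlapped, with 0.00177 to 0.00235 in Stab1-/- and 0.00231 to 0.00369 in wildtype livers. How often ratios between other genes are without overlap was not computed. These ratios are given as descriptions with no test.

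The coefficient of variation at 2 weeks was larger in Stab1-/- than in wildtype livers for Apoa1, Apob, Apoc3, Apoe and Apom and smaller for the other members. Apoe had 9442, 13750, 12438 and 14272 RPKM there and 12236, 13707, 14849 and 14617 RPKM in wildtype livers, so that Stab1-/- replicate 1 was the lowest of all 8, and it sets the wider spread (coefficient of variation 17.3% against 8.55%). In the same library Apob was the highest of the 8, at 526 RPKM, where the other Stab1-/- livers had 417, 436 and 376 RPKM and the wildtype livers 404, 343, 349 and 312. Alb was lowest of all 15 libraries in it, at 37468 RPKM, and Trf was lowest too, while Hnf4a, at 150 RPKM, was the second highest of the 8 livers of that age.

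**Figure D3:**
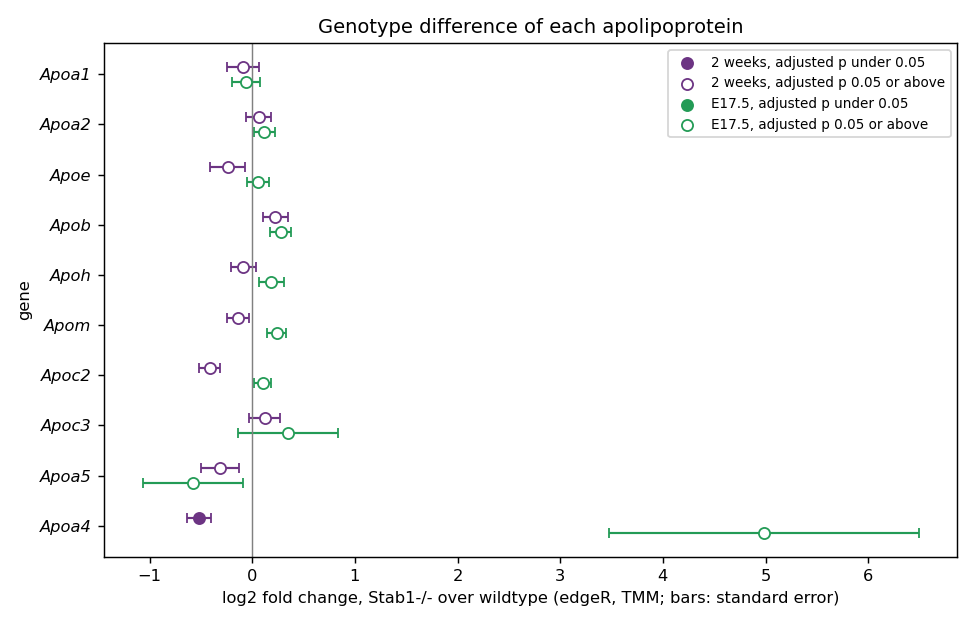
Log2 fold change of each apolipoprotein gene between the genotypes (Stab1-/- over wildtype, TMM scaling) at 2 weeks (purple) and E17.5 (green), with bars of 1 standard error, filled where the adjusted p was under 0.05. Apoa4 at 2 weeks (-0.52) is the one filled point, and Apoa4 at E17.5 (4.98) has a standard error of 1.51.

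At E17.5, 0 members were called by edgeR, beside a background of 0.366% of 13388 genes (0.194% higher and 0.172% lower). At an unadjusted p under 0.05 there were 3, Apoa4, Apob and Apom, beside 1728 of all genes tested, and DESeq2, which gave Apoa4 no adjusted p, and limma also called 0. Apob was higher in every Stab1-/- sample, when scaled by TMM (3607 ± 211 CPM, n = 3, against 2977 ± 221 CPM, n = 4, SD), with a log2 fold change of 0.28 (SE 0.10, adjusted p = 0.309). It was the 1 member without overlap, where 11.4% of all genes had none (6.15% higher and 5.21% lower), and on the RPKM scale, with 276, 234 and 249 against 197, 208, 224 and 243, the ranges overlapped. Apom had a log2 fold change of 0.24 (SE 0.09, adjusted p = 0.332). The other members overlapped, and Apoa1, Apoa2, Apoe, Apoc2 and Apoh had log2 fold changes between -0.06 and 0.19. Apoa5 had 29, 76 and 28 reads in Stab1-/- and 123, 73, 53 and 33 reads in wildtype samples, a log2 fold change of -0.58 with a standard error of 0.49.

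Apoa4 at E17.5 was set by 1 library. Stab1-/- replicate 1 had 2851 reads of Apoa4, spread over 95.3% of the gene model, while the other Stab1-/- samples had 14 and 17 reads and the wildtype samples 20, 8, 41 and 57. The log2 fold change was 4.98 (SE 1.51, adjusted p = 0.234), and without this library it was -0.90 (SE 0.61, adjusted p = 0.729). Of the 10 intestinal markers, 9 were highest in the same library among the 7 of that age. Cdx2, the transcription factor that defines intestinal epithelium, had 253 reads there, 1 and 19 in the other Stab1-/- samples and 0 to 1 in the wildtype samples. The adhesion protein gene Cdh17 had 854 reads against 0 and 42, and 3 to 5 in wildtype, and the peptide gene Guca2a had 353 against 0 and 19, and 0 in wildtype. All 4 biliary markers, which are shared by other epithelia, were also highest in it, with a sum of 89.8 RPKM against 5.07 to 11.2 in the other libraries of that age. The part of intestinal RNA in the Apoa4 level of this library was not tested.

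Apoc3 had 259 reads in the same library, against 69 and 52 in other Stab1-/- samples and 149, 110, 90 and 67 in wildtype. Its log2 fold change was 0.35 (SE 0.49), and without the library it was -0.68 (SE 0.31, adjusted p = 0.565). Apob was the highest of the 7 in that library too, at 276 RPKM, and without it its log2 fold change was 0.23 (SE 0.11, adjusted p = 0.593). Apoa1, at 4946 RPKM there, was between the other Stab1-/- samples at 5157 and 4221 RPKM. Apoa5 had 29 reads in it, close to the 28 of replicate 3. The part of intestinal RNA in these values was not tested.

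**Figure D4:**
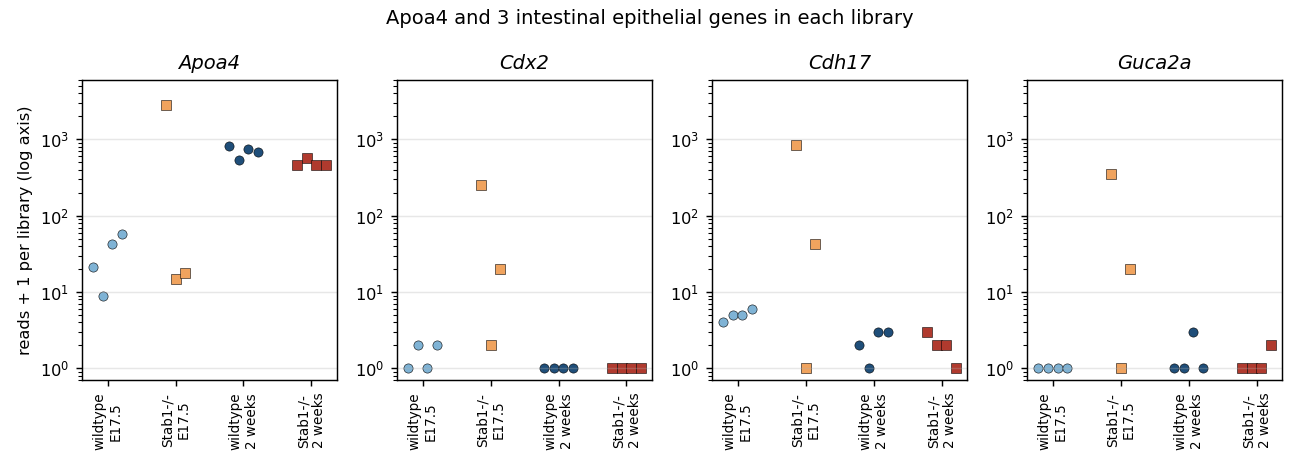
Reads + 1 (log axis) of Apoa4 and of the intestinal epithelial genes Cdx2, Cdh17 and Guca2a in each library, with 1 point per library in the 4 groups. The Stab1-/- library with 2851 Apoa4 reads at E17.5 also has the most reads of the other three genes (253, 854 and 353), which are at most 2 reads in every 2-week library although Apoa4 is at 466 to 818 there.

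Whether the genotype effect differed between the ages was tested by the interaction term over all 15 libraries. By edgeR 0 of the 10 members passed, beside a background of 1.81% of 13885 genes (1.01% higher and 0.799% lower). At an unadjusted p under 0.05 there were 3, beside 3216 of all genes tested. DESeq2 called 1 (Apoc2, adjusted p = 0.00535), beside 1058 of 19242 genes, and gave Apoa4 no adjusted p, and limma called 0. Of the 3 members, Apoc2 had an effect at E17.5 that was higher by 0.48 (SE 0.14, adjusted p = 0.0724, edgeR) than that at 2 weeks. By edgeR neither that difference nor the effect at either age passed the test (log2 fold change -0.42 at 2 weeks and 0.10 at E17.5). Apom had 0.34 (SE 0.15, adjusted p = 0.177). The value of Apoa4, which rests on the library with intestinal markers, was 5.43 (SE 1.46, adjusted p = 0.0628), and without Stab1-/- replicate 1 of E17.5 it was -0.41 (adjusted p = 0.749), while without replicate 2 or 3 of that group it passed the test (adjusted p = 0.0296 and 0.0319). Apoc2 passed without wildtype replicate 4 of 2 weeks (adjusted p = 0.0484). Under library totals the median of all genes moved to -0.12 and the share of higher genes among those called from 55.8% to 28.4%. The corresponding share in the genotype comparison went from 35% to 53.7% at 2 weeks and from 53.1% to 40.7% at E17.5.

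The proteins that build, remodel and take up the particles were examined through 6 lists of 56 genes, of which 55 were in the table and 52 to 54 were tested in a comparison (plot of the lists by log2 fold change). In wildtype livers, 42 of 53 were higher at 2 weeks than at E17.5, 4 lower and 7 not called, with a median log2 fold change of 1.16. Of all 13369 genes tested there, 71.9% were called, 34.9% higher and 37% lower. All 7 of the other apolipoprotein genes tested rose, with a median of 2.60. They include Apon, which rose by 31.2-fold (log2 4.97, SE 0.17), and Apoc1, an inhibitor of lipid transfer and lipase that lies between Apoc2 and Apoe and rose by 9.68-fold (log2 3.27, SE 0.13). Of the genes of particle assembly, 7 of 8 rose, among them Tm6sf2, which acts in the loading of very-low-density lipoprotein with lipid (log2 4.31, SE 0.15), and Apobec1, which edits the Apob messenger RNA (log2 1.24, SE 0.12).

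Of the genes of high-density lipoprotein and lipid transfer, 6 of 8 rose, led by Gpihbp1, which holds lipoprotein lipase on the capillary wall (log2 2.88, SE 0.15), and Lipc, hepatic lipase (log2 1.71, SE 0.10). All 4 genes of lipase control tested rose, with a median of 1.22, and the transcription factors were higher in 15 of 16, with a median of 1.39, including Creb3l3 (log2 2.32, SE 0.10) and Nr1h3, which encodes the liver X receptor alpha (log2 1.91, SE 0.10). Srebf2, the regulator of sterol synthesis, was the 1 transcription factor that fell, by 0.91 (SE 0.12). The receptors were split, with 3 higher, 3 lower and 4 not called and a median of 0.05. Sdc1, a heparan sulfate proteoglycan that binds remnants (log2 2.85, SE 0.13), and Lsr, the lipolysis-stimulated receptor (log2 2.15, SE 0.09), rose. In Stab1-/- livers 39 of 54 were higher, 8 lower and 7 not called, with a median of 1.12. Of all 13433 genes tested there, 72.5% were called, 35.7% higher and 36.8% lower. Under hepatocyte marker scaling 17 list genes were higher and 25 lower in wildtype livers, beside 926 higher and 11143 lower of 13369 genes.

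**Figure D5:**
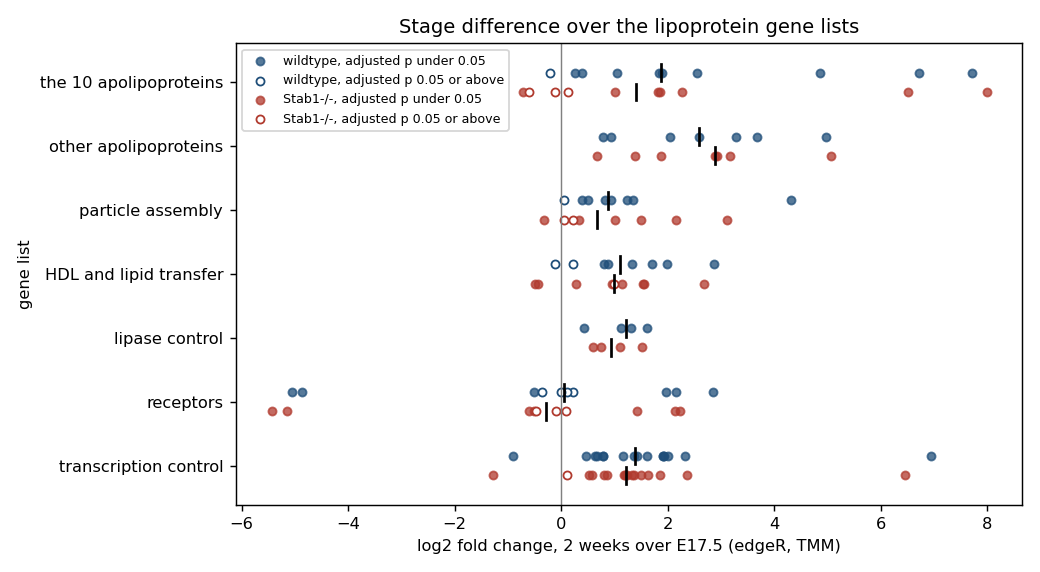
Log2 fold change between the ages (2 weeks over E17.5, TMM scaling) of each gene in the 10 apolipoproteins and the 6 lists, in wildtype (blue) and Stab1-/- (red) livers, filled where the adjusted p was under 0.05, with a black bar at the median of each list. The medians are above 1 for the apolipoproteins in both genotypes and close to 0 for the receptors (0.05 in wildtype and -0.29 in Stab1-/- livers).

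Between the genotypes few of these genes were called. At 2 weeks edgeR called 2 of 53, both lower in Stab1-/- livers, and 14 had an unadjusted p under 0.05, beside 2.67% called and 2975 with an unadjusted p under 0.05 of the 12716 genes tested. The 2 were Sdc1 (204 ± 18.5 against 305 ± 50.1 CPM, log2 fold change -0.58, SE 0.13, adjusted p = 0.0347) and Pltp, which transfers phospholipid between particles (31.2 ± 3.23 against 45.1 ± 6.82, log2 fold change -0.53, SE 0.13, adjusted p = 0.0475, SD, n = 4 each). Both calls were near ones: over 19 alternatives that of Sdc1 held in 11 and that of Pltp in 6, with adjusted p-values of 0.00170 to 0.115 and 0.0100 to 0.145. Neither held with library totals (0.0626 and 0.0758), with limma, or without any 1 Stab1-/- library or wildtype replicate 4, and that of Pltp was also lost without wildtype replicate 1 or 3. At E17.5 0 of 52 were called by edgeR and by limma, and 12 had an unadjusted p under 0.05, beside 1728 of the 13388 genes tested. DESeq2 called 2, beside 235 of 18730 genes, where edgeR called 49 of 13388. The gene with the smallest p by edgeR was Clu, also named apolipoprotein J (log2 fold change 0.38, SE 0.09, adjusted p = 0.141). In the interaction 1 of 54 was called, Sdc1, whose genotype effect was higher by 0.68 (SE 0.16, adjusted p = 0.0453) at E17.5 than at 2 weeks, a call that held in 7 of 22 alternatives. The medians over all list genes were -0.09 at 2 weeks and 0.12 at E17.5.

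The profiles of the members over the 15 libraries were compared with those of other genes by the root-mean-square difference of mean-centred log2 values. These came from the 9287 genes, members included, with a mean of at least 10 CPM. For Apoa4 the closest genes were Cdhr5, Fabp2 (0.99) and Cldn2, all farther off than the nearest gene of any other member, of which Cdhr5 and Fabp2 encode proteins of the intestinal brush border and enterocyte. The Apoa4 profile includes Stab1-/- replicate 1 of E17.5, the library with intestinal markers. Apoa4 was at 235 CPM there and at 0.668 to 4.61 CPM in the other fetal libraries. Distances without this library were not computed. For Apoa5 the closest genes were the cytochrome P450 genes Cyp2c37 (0.29) and Cyp2e1 (0.43) and the retinol dehydrogenase gene Rdh9 (0.46), and for Apoc3 they were Rnase4 (0.43), Abcg5 (0.44) and Ces1b (0.48). Apoa1 was closest to Acadvl (0.11), Gc (0.12) and Scrn2 (0.13), Apoe to Asgr2, Ecm1 and Igfbp4, and Apoh to Cpn1, Dad1 and Pdlim1, all within 0.13. Apoa2 (Grcc10, Phyhd1, Gcdh), Apob (Shroom2, Ids, Dusp3), Apoc2 (Sema4c, Akirin2, B4galt1) and Apom (Immt, Jak1, Atp6v1a) had nearest genes within 0.15. Among the members, the closest pairs were Apoa1 with Apoa2 (0.17) and Apom with Apoh (0.18). These distances share libraries and scaling and are descriptions.

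The genes that flank the chromosome 9 cluster were far less changed between the ages than the 3 low fetal members. In wildtype livers Sik3, on the side of Apoa1, had a log2 fold change of 0.79 and Zpr1 (listed as Zfp259), on the side of Apoa5, one of 0.92, both called. On chromosome 7, Apoc1 (3.27), between Apoe and Apoc2, rose as Apoe did, while Tomm40, on the other side of Apoe, had 0.04 (adjusted p = 0.759) and Clptm1, on the other side of Apoc2, had 0.56. Between the genotypes, none of Sik3, Zpr1, Tomm40, Clptm1 and Apoc1 was called at 2 weeks or E17.5 by edgeR (adjusted p = 0.196 to 0.862).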

How the data were processed

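The authors deposited 1 table with 19464 rows, each with a gene ID, a gene length and 3 values for each of the 15 libraries: the whole-number count of uniquely mapped reads, not normalised, the share of the gene's length with reads, in percent, and RPKM. The deposited RPKM values were recomputed from the counts and gene lengths. Which aligner, counter, genome build and strand setting were used is not given in the sources used here, and the methods name no test for the sequencing. Groups and replicate numbers were taken from the sample labels. The members and gene lists were chosen with earlier results of these data known.

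The tests ran in R 4.3.3 on the counts, using the quasi-likelihood test of edgeR 4.0.16 (TMM scaling, genes kept by filterByExpr at min.count 10 and min.total.count 15, Benjamini-Hochberg adjustment over all genes tested, two-sided). Each comparison was fitted on its own 2 groups, and the interaction on all 15 libraries. SE is the log2 fold change divided by the square root of the F statistic. Depth was 9.66 M to 10.96 M reads on genes per library. Counts of any pair of libraries in a group differed by at least 5.41 times the sampling noise (chi-square over its degrees of freedom), so each was kept as a sample. Alternatives were median-of-ratios scaling, library totals, scaling that leaves out every library's 10 most-read genes, DESeq2 1.42.0, no filter, limma 3.58.1 on log2(RPKM + 0.1) and log2(RPKM + 1), the replicate number as a block, all 15 libraries in 1 fit, GC-content offsets, each library left out, and hepatocyte marker scaling, the last chosen after seeing the data. The fits were tested on simulated counts with 200 genes changed by a log2 of 2. Of these edgeR recovered 200 in each comparison of 2 groups and 196 in the interaction, with 8 to 17 false calls. That change is larger than the genotype differences called among the members and lists, so the simulation does not measure the power to find those. Genes named are the 10 members, Stab1, list genes with the smallest p in each direction, the 3 closest profiles of each member, and direct neighbours. Some markers are also named, chosen after their values were seen, and 1 list gene that this rule would name is not reported here. Positions are from GENCODE vM21 (GRCm38) and start-site sequences from RefSeq (GRCm38.p6), in which 9 of 10 members matched.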

Additional observations from a re-analysis of the deposited data

Results flagged for a closer look

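In 30 groups of 4 libraries, 4 had a highest or lowest value farther from the others than Dixon's test allows, where chance gives about 1 in 20 groups. At 2 weeks, Apoa2 was low in wildtype replicate 4 (8505 RPKM, the next at 10030) and so was Apoc2 (262 RPKM, the next at 334). Apom was low in wildtype replicate 2 (446 RPKM, the next at 514). Apoa4 was high in Stab1-/- replicate 2 (32.5 RPKM, the next at 29.0). Without wildtype replicate 4, Apoc2 passed the test between the genotypes at 2 weeks (log2 fold change -0.49, adjusted p = 0.0239, edgeR).

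The genotype effect on Sdc1 differed between the ages by the interaction test, by 0.68 (SE 0.16, adjusted p = 0.0453, edgeR), being -0.58 at 2 weeks and 0.14 at E17.5. The call held in 7 of 22 alternatives, with adjusted p-values of 0.00326 to 0.123. It was lost with library totals, without the filter, with both limma fits, and without any 1 Stab1-/- library of 2 weeks, wildtype replicate 4 of 2 weeks, Stab1-/- replicate 1 or 2 of E17.5 or any 1 wildtype library of E17.5.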

How the results depend on the processing

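The number of members called at 2 weeks was 1, and 0 with library totals, both limma fits and the GC-content offsets with or without the replicate block, 2 with DESeq2 and 2 with the replicate block, and 0 to 1 when each library was left out. With all 15 libraries in 1 fit the member called at 2 weeks was Apoc2 (adjusted p = 0.0270) and not Apoa4 (log2 fold change -0.50, SE 0.87, adjusted p = 0.762). That fit also takes in the E17.5 library with 2851 Apoa4 reads. In the interaction the number of members called was 0, 1 with DESeq2, and 0 to 1 with each library left out. At E17.5 it was 0 in every alternative, and in the stage comparisons it was 8 to 10 of 10 in wildtype and 7 to 8 in Stab1-/- livers over all alternatives. The directions moved with the scaling. In wildtype livers 9 were higher and 0 lower by the main fit, 7 and 1 with library totals, and 6 and 4 with hepatocyte marker scaling. These settings called 9615, 9937 and 12069 of all 13369 genes. In Stab1-/- livers the members were 6 and 1, 6 and 2, and 5 and 3, beside 9736, 9706 and 11360 of 13433 genes. The deviations of same-numbered libraries had a mean r of 0.064 over 4 pairs at 2 weeks and -0.110 over 3 pairs at E17.5. The other pairs had -0.021 and 0.036. So few pairs cannot decide whether libraries of the same number belong together. With the replicate block, 1181 genes were called at 2 weeks, where 340 were called without it. Apoc2 was among them (adjusted p = 0.0370, edgeR). Of the single values of members under an alternative, 713 kept direction and side of the threshold, 21 were no longer called, 17 became called and 35 turned in direction. Apom in wildtype livers was no longer called between the ages without replicate 3 or 4 of 2 weeks or replicate 1, 2 or 3 of E17.5 (adjusted p = 0.0620 to 0.103).

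At 2 weeks Apoh turned to 0.0054 with library totals and 0.0068 with both limma fits, and Apoa1 to 0.0058 with GC-content offsets and 0.00055 with the block added. At E17.5 Apoe turned to -0.0045 with library totals and -0.0042 with both limma fits, and Apoc3 to -0.0038 with limma on log2(RPKM + 0.1), -0.071 with the replicate block and -0.090 with GC-content offsets and the block. In wildtype livers Apom turned between the ages to -0.11 with library totals and both limma fits, and with hepatocyte marker scaling Apob, Apom and Apoh turned to -0.37, -1.18 and -1.05, Lmf1 to -0.31 and Apobec1 to -0.19. In Stab1-/- livers Apoh turned to -0.10 with library totals, -0.098 with both limma fits and -0.99 with hepatocyte marker scaling, Apob to -0.098 with the latter, and Apoa4 to 2.46 and 1.88 with limma on log2(RPKM + 0.1) and log2(RPKM + 1) and 2.21 with the block. With each library left out, the ranges that crossed 0 were, at 2 weeks, -0.19 to 0.00365 for Apoa1, -0.00789 to 0.11 for Apoa2 and -0.0443 to 0.21 for Apoc3. They were at E17.5, -0.14 to 0.0302 for Apoa1, -0.90 to 5.56 for Apoa4, -0.68 to 0.73 for Apoc3 and -0.00995 to 0.10 for Apoe, in Stab1-/- livers between the ages, -1.17 to 5.24 for Apoa4, and in the interaction, -0.41 to 6.00 for Apoa4. The cause was not tested where it is not the left-out library itself.

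The genes called at 2 weeks numbered 340, and 861 with DESeq2, 1181 with the block, 219 with limma on log2(RPKM + 0.1), 703 with all 15 libraries in 1 fit and 707 with GC-content offsets and the block. At E17.5 they were 49, and 235 with DESeq2, 24 with the block and 30 with GC-content offsets and the block. In the interaction they were 251, and 1058 with DESeq2 and 440 with limma on log2(RPKM + 1). With each library left out they were 116 to 648 at 2 weeks, 27 to 46 at E17.5 and 30 to 684 in the interaction, where 31 were called without Stab1-/- replicate 1 of E17.5. Apoa4 and Apoa5 at E17.5 rest on 8 to 123 reads in the libraries other than Stab1-/- replicate 1, which limits the precision of the genotype comparison there.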
